A study of Mus musculus with 5 samples.

Results

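Ribosomal proteins and the factors that start and extend protein chains were followed across 5 mouse cell cultures, each measured on 1 Affymetrix expression array. Members were all probe sets annotated with a single symbol for a cytoplasmic ribosomal protein (Rpl, Rplp, Rps or Rpsa), an initiation factor (Eif1 to Eif6) or an elongation factor (Eef1 or Eef2), without the S6 kinases, the eIF2 kinases and pseudogenes. A probe set is a group of short oligonucleotides on the array that together read 1 transcript. The rule gave 111 of 12488 probe sets, for 80 of the 8252 genes with a single symbol. They comprised 21 probe sets of 16 large subunit proteins, 27 of 18 small subunit proteins, 53 of 37 initiation factors, 9 of 8 elongation factors and their modifying enzymes, and 1 for Rpl41, which was kept apart. A further 40 probe sets were listed for several genes, at least 1 of them matching, and were left out by the rule.

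AxJ is a mouse plasma cell line, from the antibody-secreting stage of the B lineage. It was stably transfected with empty vector (1 array) or with constructs that overexpress either of 2 related RNA-binding proteins, hnRNP-H (1 array) and hnRNP-F (2 arrays, clones B5 and D6), and clones with high levels of either protein had been picked by western blot. The fifth array came from A20, an untransfected line labelled as memory B cells. All cultures grew in log phase in IMDM with 5% FCS and received no treatment, and the AxJ lines alone were also given G418, the drug that selects for the vector. The study asked how hnRNP-F overexpression affects the choice between the secreted and the membrane form of the immunoglobulin heavy chain mRNA, with empty vector, hnRNP-H and A20 as controls. Each line was 1 clone or culture measured once. The p-values below rest on the spread between empty vector and hnRNP-H and between B5 and D6. The single A20 array adds nothing to it. This spread holds clonal as well as technical differences and, in the first pair, any effect of hnRNP-H.

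A ribosome is built from ribosomal RNA and about equal amounts of each ribosomal protein, and dividing cells devote a large share of their mRNA to these proteins. Initiation factors bring the small subunit and the first tRNA to the cap of an mRNA, with eIF3 as the large scaffold on the small subunit, eIF4 proteins at the cap, and eIF2 carrying the tRNA under control of its exchange factor eIF2B. Elongation factors then deliver the next tRNAs (eEF1) and move the ribosome along (eEF2). Plasma cells secrete antibody at a high rate and so depend heavily on this machinery.

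Per array, the deposited linear intensities had medians of 33.9 to 41.7. The arrays also differed in the Gapdh control probe sets. Their 5′ signal relative to the 3′ signal was 0.181 on the B5 array and 0.212 with empty vector, 0.384 in A20, 0.683 in D6 and 0.866 on the hnRNP-H array. Of 10 plasma cell marker probe sets, 5 fell and none rose in A20, where their summed intensity was 2564 against 15640 to 17584 in the AxJ lines. Of 10 B cell marker probe sets, 7 rose in A20, with a sum of 8479 against 760 to 1061. Sums over the markers of T, myeloid, erythroid and stromal cells were at most 613 on any array, with no call in either tested comparison. No probe set for the overexpressed hnRNP-F was among those with a single symbol.

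Ribosomal protein probe sets were among the brightest on all 5 arrays, but only part of them were bright, which depends on the probes as well as on the mRNA. Members held 16 to 19 of the 100 brightest places on each array. Of the 48 ribosomal protein probe sets besides Rpl41, 21, for 19 genes, had a mean intensity over 1000, a limit chosen after the values were seen, and 24 had a mean under 100. Their medians per array were 6083 (A20), 7216 (hnRNP-H), 7541 (D6), 8468 (empty vector) and 8711 (B5). The highest of the 5 values was in B5 for 14 of the 21, and the lowest was in A20 for 12. The ratio of a probe set's highest to lowest value had a median of 1.82 and ran from 1.10 for Rpl6 to 3.25 for 1 of the Rpl10a probe sets. Over all 563 probe sets with a mean over 1000 the median of this ratio was 2.04.

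**Figure D1:**
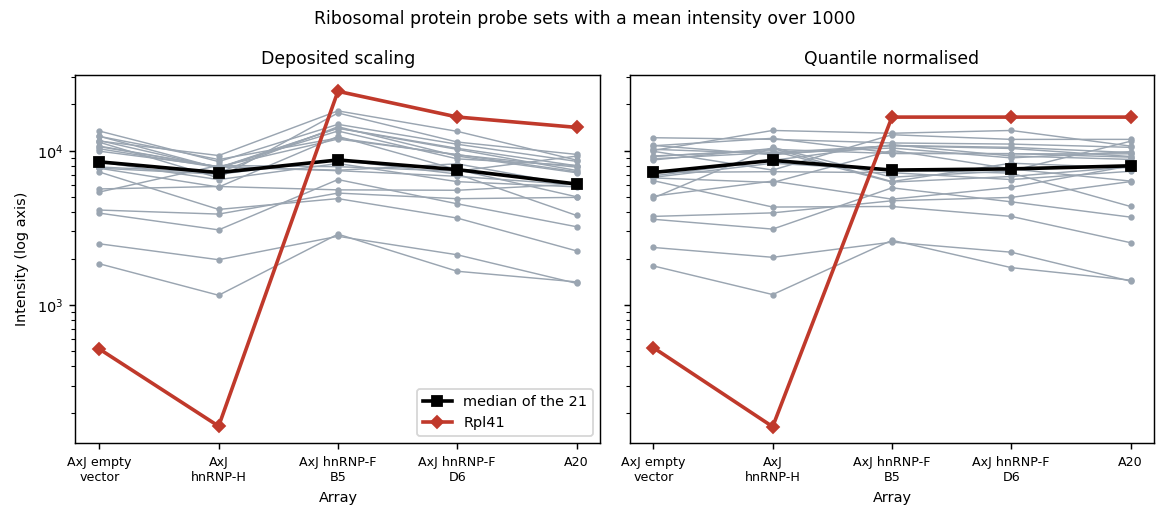
Intensity of the 21 ribosomal protein probe sets with a mean over 1000 (grey), their median (black) and Rpl41 (red) on each of the 5 arrays, on a log axis, as deposited (left) and after quantile normalisation (right). As deposited the median runs from 6083 in A20 to 8711 in B5, whereas Rpl41 reads 518 and 164 in the AxJ controls and 14165 to 24275 on the other 3 arrays, which quantile normalisation sets to one value.

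Rpl41 stood apart from every other member. It encodes the smallest protein of the large subunit, a short and very basic peptide, and is read here by 1 probe set. The AxJ controls read 518 (empty vector) and 164 (hnRNP-H), the hnRNP-F clones 24275 (B5) and 16541 (D6), and A20 read 14165. The 2 hnRNP-F clones and A20 thus lay together at the top of the range, and both AxJ controls far below them. B5 was 46.9 times empty vector and 148 times hnRNP-H, D6 was 31.9 and 101 times, and A20 was 27.3 and 86.5 times. The controls differed from each other 3.16-fold and the clones 1.47-fold. On the scale of log2(intensity + 6.53), Rpl41 rose in the hnRNP-F clones by 6.07 (SE 0.48, 2 arrays against 2, limma adjusted p = 0.000785), and it was higher in A20 than in the controls by 5.57 (SE 0.59, adjusted p = 0.000287). A20 lay within the AxJ range, and against all 4 AxJ arrays its difference was 2.53 (adjusted p = 0.564). The call for the clones was lost when dim probe sets were kept in and when the spread was modelled without a trend on intensity (adjusted p up to 0.533), while the difference stayed between 5.26 and 6.88. The name of its probe set carries the suffix f, for probes that can match related sequences. As ribosomal protein genes have many processed copies in the genome, which copy was read cannot be told from the array.

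No other probe set kept had the pattern of Rpl41 at a comparable size. This pattern, with B5, D6 and A20 above both controls, was taken from the values of Rpl41 itself. Its first place is therefore no test, and the values below only describe how far other probe sets followed the pattern. Across the 9205 probe sets kept, 17 had B5, D6 and A20 all at least 2-fold above both controls, which is 0.185%, and Rpl41 alone reached 4-fold. The likeness used here was the smallest of the 6 log2 differences between these 3 arrays and the 2 controls, 4.76 for Rpl41. Next came a probe set listed for more than 1 symbol with 1.71, Id3 with 1.53, Zfp651 with 1.50, a further one listed for more than 1 symbol with 1.48, and Tfeb with 1.28. Id3, an inhibitor of E proteins, read 11.9 and 5.57 in the controls but 46.8, 64.0 and 102 in B5, D6 and A20. Of these, only Rpl41 passed in the hnRNP-F clones.

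The comparison of the hnRNP-F clones with the AxJ controls asked which transcripts follow hnRNP-F. Apart from Rpl41, no ribosomal protein, initiation factor or elongation factor passed the threshold. Of the 95 member probe sets kept, 1 rose and none fell by limma. That 1 was Rpl41, which was also the only call among all 9205 probe sets (0.0109%). At an unadjusted p under 0.05 there were 6 members, and 517 of all probe sets. Adjusted p was at least 0.836 for every member other than Rpl41. Both clones lay above both controls for 26 members (17.6% of all probe sets did) and below both for 15 (18.9% of all).

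Ribosomal proteins other than Rpl41 differed by between -0.83 and 0.78 in log2, with 30 of 40 probe sets above 0, where 49.8% of all were, and a median of 0.21, beside -0.00 over all probe sets. The median was 0.28 for 18 large subunit probe sets and 0.21 for 22 of the small subunit. After quantile normalisation the median of all 40 was 0.14. For the 21 bright ones the median was 0.21 as deposited and 0.23 under median scaling, with 16 above 0 in both. It was -0.01 after quantile normalisation, with 10 above and 11 below, so their direction depends on the scaling. Without clone B5 the median of the 40 was 0.07, and without D6 it was 0.37. Rplp0, the stalk protein on which elongation factors dock, read 11553 and 9305 in the controls against 18124 in B5 and 13350 in D6. The clones were higher by 0.58 in log2 (SE 0.37, limma adjusted p = 0.842), with both clones above both controls. Rpsa, a small subunit protein also known as the laminin receptor, read 3939 and 3067 in the controls against 6500 in B5 and 4527 in D6 (0.64, SE 0.34, adjusted p = 0.836). Rps3, which lines the entry of the mRNA channel, read 7841 and 7216 against 14307 and 9234 (0.61, SE 0.37). The bright probe set of Rpl19 read 11353 and 6657 against 17569 and 11386, so that D6 barely exceeded empty vector (0.70, SE 0.41). Rpl13a, read at 1849 and 1156 in the controls, was higher in B5, at 2879, and within the control range in D6, at 1654 (0.58, SE 0.36). In each of these genes B5 was the highest array. Rpl6 read 5541 to 5861 over the 4 AxJ arrays, and Rpl7 lay lower in both clones, at 7424 and 6825 against 10716 and 7843 (-0.36, SE 0.35).

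**Figure D2:**
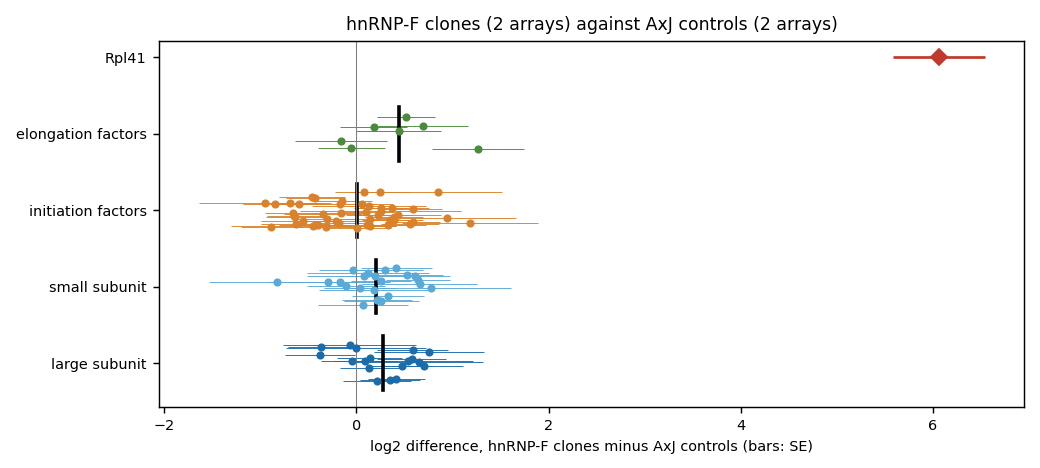
Log2 difference of each member probe set kept, hnRNP-F clones (2 arrays) minus AxJ controls (2 arrays), by class, with points for probe sets, thin bars for SE and black lines for class medians. Rpl41 lies at 6.07, while the ribosomal proteins lie between -0.83 and 0.78 and the initiation factors around a median of 0.01.

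Initiation factors were evenly divided, with 24 of 47 probe sets above 0 and a median of 0.01. The largest statistics belonged to factors that lay lower. Eif5, which triggers GTP hydrolysis on eIF2 once the start codon is found, read 1603 with empty vector, 964 with hnRNP-H, 611 in B5 and 733 in D6 (-0.89 in log2, SE 0.32, limma adjusted p = 0.836). Eif2a, an alternative carrier of the first tRNA and no subunit of eIF2, read 490 and 277 in the controls against 218 and 185 (-0.85, SE 0.33). Both genes had the clones below both controls, but the controls of each also differed from one another by more than the clones did. Of 5 probe sets for eIF1 and eIF1A, which scan for the start codon, 4 lay below 0, with a median of -0.65. The 11 probe sets of eIF3 had a median of 0.10 and the 11 of eIF4 one of 0.01.

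Eef1a1, the protein that brings aminoacyl-tRNA to the ribosome, read 10359 (empty vector), 3641 (hnRNP-H), 16709 (B5), 13081 (D6) and 11691 (A20). The hnRNP-H array was lower than all the others, and the clones exceeded empty vector by less than the controls differed from each other. The difference of the clones from the controls was 1.27 (SE 0.48, limma adjusted p = 0.836). Its tissue-restricted paralog Eef1a2 read 67.1, 181, 128, 183 and 50.9 in the same order (0.44, SE 0.44). Eef2, the translocation factor, read 995, 2660, 1918, 3614 and 3521, and here empty vector was low and the clones overlapped the controls (0.69, SE 0.46). Eef1akmt1, which enters by its symbol and encodes a methyltransferase that modifies eEF1A, read 167 and 172 in the controls against 292 and 206 (0.52, SE 0.31).

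In A20 against the AxJ controls, 5 initiation factor genes rose besides Rpl41, and the inhibitor Eif4ebp1 fell. By limma 623 of the 9205 probe sets, or 6.77%, were called, 3.39% higher and 3.38% lower. Of the 95 members, 6 rose and 1 fell, a total close to that background. At an unadjusted p under 0.05 there were 15 members, and 1864 of all 9205 probe sets. When each array was scaled to one median, 65.3% of all calls were higher in place of 50.1%, with 6 members higher and none lower. A20 is a single array, assumed to vary like the AxJ arrays, and line, clone, drug and array cannot be told apart in this comparison. Intensities are scaled per array, so fewer transcripts per cell and fewer cells of a kind cannot be told apart either.

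The eIF3 complex gave 3 of the 5. Eif3b, a core subunit that bridges the complex to the small subunit, read 711 (empty vector), 1033 (hnRNP-H), 1168 (B5), 1087 (D6) and 2587 (A20). It rose in A20 by 1.59 over the controls (SE 0.37, limma adjusted p = 0.0270). Eif3d, which can itself bind the cap of some mRNAs, read 843, 1051, 1220, 1179 and 2645 in the same order (1.48, SE 0.35, adjusted p = 0.0293). Eif3l, a peripheral subunit, read 788, 1393, 1147, 1317 and 3091 (1.55, SE 0.41, adjusted p = 0.0461). In all 3 genes A20 was above every AxJ array, by more than the 4 AxJ arrays differed from each other. A second probe set of Eif3b and one of Eif3l stayed below the filter. The remaining 8 eIF3 probe sets kept, for 7 genes, did not pass and ranged from -0.62 to 1.68, with adjusted p from 0.324 to 0.993. Among them Eif3c read 2105 to 2433 on the AxJ arrays and 2224 in A20, and Eif3k read 1295 to 2215 on the AxJ arrays and 1178 in A20.

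**Figure D3:**
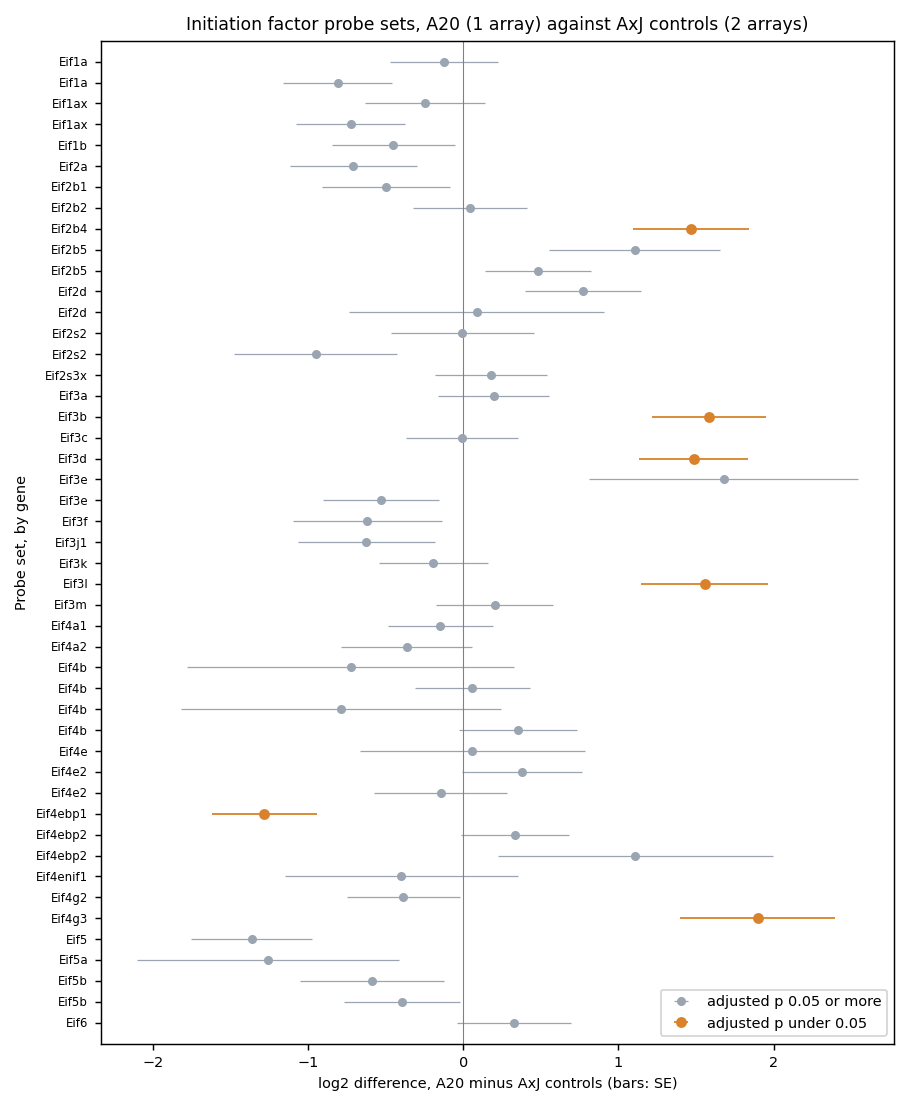
Log2 difference of the 47 initiation factor probe sets kept, A20 (1 array) minus AxJ controls (2 arrays), with SE bars. The 6 orange points passed an adjusted p of 0.05, of which 5 lie at 1.46 to 1.90 and Eif4ebp1 at -1.28.

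The other 3 calls concerned the cap complex and eIF2B. Eif4g3, a paralog of the scaffold that joins the cap-binding protein to eIF3, read 41.9, 70.3, 31.0 and 54.3 in AxJ, in the same order, and 221 in A20. It rose by 1.90 (SE 0.50, limma adjusted p = 0.0470). Eif2b4, a subunit of the exchange factor that recharges eIF2, read 198, 303, 343 and 305 in AxJ and 689 in A20 (1.46, SE 0.37, adjusted p = 0.0414). The other subunits measured did not pass, with 0.04 for Eif2b2, -0.50 for Eif2b1 and 0.48 and 1.10 for the Eif2b5 probe sets. Eif4ebp1, which holds the cap-binding protein eIF4E inactive until TOR signalling releases it, read 413, 367, 437 and 426 in AxJ and 156 in A20. It fell by 1.28 (SE 0.34, adjusted p = 0.0483). Its paralog Eif4ebp2 differed by 0.34 and 1.11 in its probe sets, without passing. For each of these genes A20 lay outside the range of the 4 AxJ lines, which differed less among themselves.

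**Figure D4:**
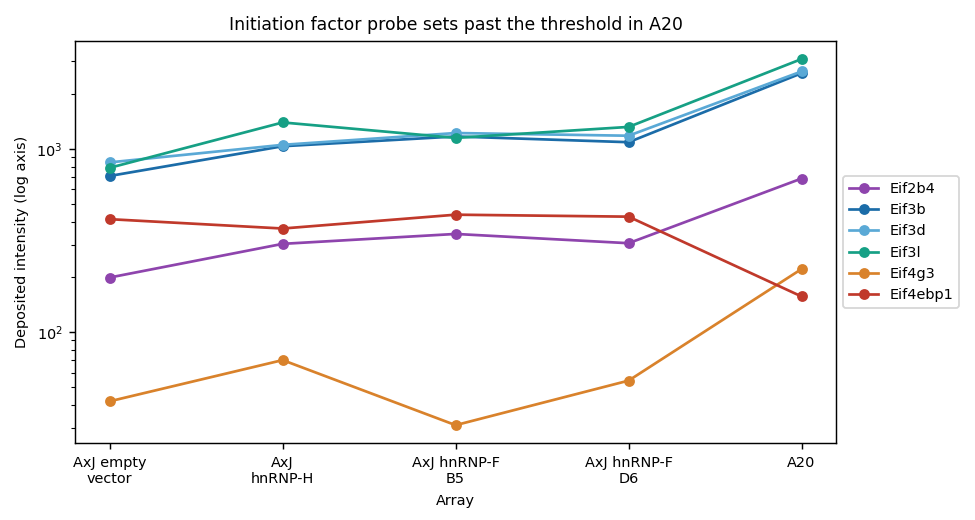
Deposited intensity on each array, on a log axis, of the 6 initiation factor probe sets that passed the threshold in A20. A20 is the highest array for Eif2b4, Eif3b, Eif3d, Eif3l and Eif4g3 and the lowest for Eif4ebp1, at 156 against 367 to 437 in AxJ.

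These 6 calls lay near the threshold. All 6 were lost, and Rpl41 was the member left, when any one of empty vector, B5 and D6 was left out, when no filter was set, and when the spread was modelled without a trend on intensity. Besides these settings, Eif4g3 was lost with a pseudocount of 1 and with quantile normalisation, Eif2b4 with quantile normalisation and against all 4 AxJ arrays, and Eif4ebp1 with a pseudocount of 32 and with median scaling. Over 12 alternatives the adjusted p of Eif3b ranged from 0.0176 to 0.151 and that of Eif4g3 from 0.0184 to 0.151, while their differences stayed between 1.32 and 1.85 and between 1.54 and 2.23. Without hnRNP-H more members passed, as did more of all probe sets.

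Sequences around the annotated start sites are shown for the genes that rose in A20, since ribosomal protein promoters are known for a short motif and a pyrimidine-rich start. They come from RefSeq on GRCm38.p6, which held 65 of the 80 member genes, and Eif4ebp1 was not matched. Each line gives 60 bases, 40 before and 20 from the start site, on the gene's strand, 5′ to 3′. Capitals mark CGGAAG or, for the other strand, CTTCCG, letters within the motif of ETS factors, chosen after the sequences were viewed.
Rpl41, chr10:128549149-128549208, minus strand: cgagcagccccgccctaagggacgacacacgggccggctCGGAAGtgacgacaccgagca
Eif3b, chr5:140419265-140419324, plus strand: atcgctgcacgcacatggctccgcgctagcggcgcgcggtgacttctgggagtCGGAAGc
Eif3d, chr15:77970805-77970864, minus strand: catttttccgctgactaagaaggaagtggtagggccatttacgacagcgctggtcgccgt
Eif3l, chr15:79075183-79075242, plus strand: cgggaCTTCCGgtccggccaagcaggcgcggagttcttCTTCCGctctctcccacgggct
Eif4g3, chr4:137993415-137993474, plus strand: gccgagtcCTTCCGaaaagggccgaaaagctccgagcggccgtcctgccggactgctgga
Eif2b4, chr5:31193120-31193179, minus strand: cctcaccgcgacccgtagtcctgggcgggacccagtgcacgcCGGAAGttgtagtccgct
These letters stood on either strand of the 300-base window, 250 before and 50 from the start, for 19 of 28 ribosomal protein genes with Rpl41 (67.9%), 18 of 32 initiation factors (56.2%) and 3 of 5 elongation factors, against 18.8% of 27025 genes. A run of at least 8 bases that were all C or T, touching the 10 bases on either side of the start, stood in 39.3% of the ribosomal protein genes, 28.1% of the initiation factors and 16.1% of all genes. Overlaps between the motifs were allowed. A match is a description of the letters, and neither share was tested.

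Ribosomal proteins as a class lay lower in A20, without any call besides Rpl41. Of 40 probe sets 32 were below 0, where 57.4% of all probe sets were, and the median was -0.35 beside -0.14 over all. The median was -0.19 without empty vector and -0.54 without hnRNP-H. The median log2 level of ribosomal protein probe sets, as apart from this difference, had an SD of 0.39 between arrays, pooled within the AxJ groups. That level falls between Rpl13a and Rpl37a, the dimmest of the bright probe sets, so this SD is theirs and not the spread of the class. A20 was below all 4 AxJ arrays for 24 of the 40 and for 40 of the 95 members, where 33.7% of all probe sets did so, and above all 4 for 16 members (23.5% of all). Scaling moved these values: the median over all probe sets was -0.04 after quantile normalisation and 0.06 after median scaling, and that of the 40 was -0.13 and -0.15. The direction of the class against all probe sets held under all 3 scalings, but for the 21 bright ones the quantile median was -0.02, beside -0.04 over all. As deposited, the bright ones had a median of -0.29, the same as the 563 probe sets of that brightness. A20 was below all 4 AxJ arrays for 12 of the 21 bright ones, where 50.3% of those 563 were.

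Rpl10a, which contacts the tRNA leaving the ribosome, had the largest statistic in the large subunit. One of its probe sets read 7276, 4163, 4892 and 3659 in AxJ, in the order above, and 2242 in A20 (-1.29, SE 0.45, limma adjusted p = 0.120). A second one read 7706, 7037, 8711 and 7059 in AxJ and 3804 in A20 (-0.95, SE 0.41, adjusted p = 0.222). Both put A20 below all 4 AxJ arrays. Rpl22, which also binds small viral and cellular RNAs, read 148, 254, 263 and 281 in AxJ and 82.4 in A20 (-1.17, SE 0.41, adjusted p = 0.122), but its dimmer probe set differed by -0.14. In the small subunit Rps27 read 363 to 614 in AxJ and 217 in A20 (-0.91, SE 0.38, adjusted p = 0.213), and the dim probe set of Rps29 read 16.6 to 34.5 in AxJ and 3.63 in A20 (-1.60, SE 0.71), while its other one differed by 0.10. Rpl8 and Rpl6 were the bright ones with A20 above all AxJ arrays, at 9225 against 5396 to 8028 and at 6083 against 5541 to 5861.

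Among the factors that missed the threshold in A20, Eif5 came closest, at 479 against 611 to 1603 in AxJ (-1.36, SE 0.39, limma adjusted p = 0.0635), and it passed without hnRNP-H. Eef1d, a subunit of the exchange factor of eEF1A, read 477, 649, 386 and 745 in AxJ and 1346 in A20 (1.26, SE 0.43, adjusted p = 0.114). Eef2 differed by 1.11 (SE 0.57, adjusted p = 0.320), with A20 just below D6. Of the paralog pairs measured, Eif4a1, the helicase that unwinds mRNA at the cap, differed by -0.15 and Eif4a2 by -0.37, and Eif4e, the cap-binding protein, by 0.06 beside 0.38 and -0.15 for the probe sets of Eif4e2. Rpl7 differed by -0.61 and Rpl7l1 by -0.41, and Eef1a1 by 0.93 where Eef1a2 differed by -1.03. None of these passed, and the differences within pairs were not tested.

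The remaining comparisons had 1 array a side and were described by size only. In hnRNP-H against empty vector, 17 members differed at least 2-fold, 8 higher and 9 lower, where 19.3% of all probe sets did so, 8.22% higher and 11.1% lower. In D6 against B5 there were 6, with 3 in each direction, where 11.8% of all did so, 5.64% higher and 6.16% lower. Many of these were dim probe sets: with a pseudocount of 32 in place of 6.53 the counts were 10 and 2. For hnRNP-H the highest were a probe set of Eif4ebp2 with 2.80 (32.4 against 264), one of Rps13 with 2.12 (17.8 against 99.4) and Eef2 with 1.41. The lowest were Rpl35a with -2.07 (55.5 against 8.21), Rpl32 with -2.01 and a dim probe set of Rps4x with -1.76. The bright probe set of Rps4x differed by -0.33 and the other Eif4ebp2 probe set kept by 0.03. For D6 against B5 the highest were a dim probe set of Eif3e with 1.50, Rps20 with 1.26 and the same Eif4ebp2 probe set with 1.19, and the lowest were a dim probe set of Eif4b with -1.79, the dim one of Rpl19 with -1.77 and Rpl39l with -1.01.

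As deposited, the bright ribosomal proteins lay slightly lower in both of these comparisons, which share no array. In hnRNP-H against empty vector 19 of the 21 lay below 0 (55.4% of all probe sets did), with a median of -0.40. In D6 against B5 it was 20 of 21 (48.6% of all), with a median of -0.42. Both differences were below 0 for 18 of the 21, against 29.1% of all probe sets. Among the 563 probe sets with a mean over 1000, 57.0% and 64.8% were below 0, with medians of -0.11 and -0.13. With each array scaled to one median the values were -0.25 with 16 of 21 below 0 for hnRNP-H and -0.39 with 19 of 21 below 0 for D6. After quantile normalisation, which ties equal ranks at this bright end, they were 0.08 with 12 of 21 above 0 and -0.06 with 14 of 21 below 0. The shift thus depends on the scaling. Empty vector and B5, the higher arrays, were also those with the low Gapdh 5′ to 3′ ratios, and the part of that ratio in the shift was not tested. The bright probe set of Rps24 read 13414 (empty vector), 8500 (hnRNP-H), 14827 (B5), 11013 (D6) and 8530 (A20). One of Rps28 read 12406, 7712, 14021, 10363 and 7989 in the same order. A20, with a ratio of 0.384, had the lowest median of the bright ones, 6083. Rpl8, at 5396 against 8028, and Rpl6 were the 2 bright ones that were higher in hnRNP-H. Initiation factors had medians of -0.09 and 0.09 in these comparisons.

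**Figure D5:**
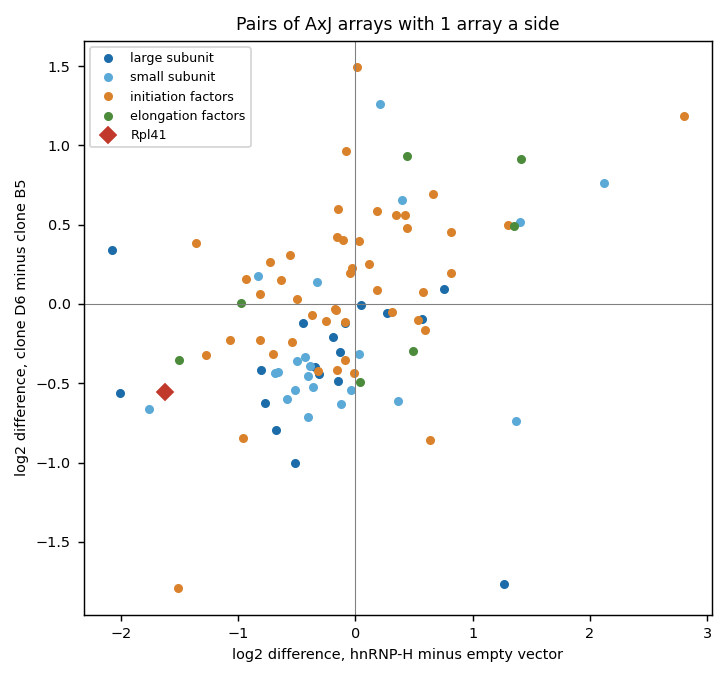
Log2 difference of each member probe set kept in hnRNP-H against empty vector (x axis) and in clone D6 against clone B5 (y axis), with 1 array a side in each. Large and small subunit proteins gather below 0 on both axes, with medians of -0.34 and -0.41 over the 40 ribosomal protein probe sets, while the largest differences come from dim probe sets such as those of Eif4ebp2, Eif4b and Rpl19.

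Probe sets of one gene did not always share a sign. Of 24 member genes with several probe sets, 19 had more than 1 kept, and their signs differed for 8 of these in the hnRNP-F comparison and for 8 in A20. Some of these differences were smaller than their SE, as for Eif4e2 in the hnRNP-F clones (-0.15, SE 0.32, and 0.01, SE 0.35). The Rpl19 probe sets had mean intensities of 11286 and 32.8, and the dim one placed B5 at 77.7 and D6 at 18.3. Of the 111 member probe sets, 16 stayed below the filter on every array, and for 8 genes no probe set was kept: Rpl39, Rps14, Rps15, Rps27l, Eif2s3y, Eif4h, Eef1g and Eef2k. With mean intensities of 3.62 (Eif2s3y) to 12.6 (Rpl39), these transcripts could not be followed.

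The wider translation machinery was followed through 8 gene lists. In the hnRNP-F clones no gene of these lists passed, with limma adjusted p of 0.836 for the largest statistics, Ddx21, a nucleolar helicase, at -1.15 and Mrpl12 at 1.29. In A20, 7 of 158 probe sets rose and 3 fell, which is 6.33% and close to the 6.77% of all probe sets. For Etf1, the factor that recognises stop codons, 1 of 4 probe sets kept rose, from 387 to 472 in AxJ to 1215 in A20 (1.52, SE 0.34, limma adjusted p = 0.0225). The others differed by -0.00, 0.54 and 0.56 without passing, and it was the 1 call among 9 probe sets of termination and recycling. Of 33 probe sets of ribosome biogenesis 3 rose and 1 fell. Pes1, part of a complex of large subunit maturation, rose by 1.49 (SE 0.36), and its partner Bop1 rose by 1.66 (SE 0.40) in 1 probe set but differed by -0.99 in the other (SE 0.77, adjusted p = 0.547). Tcof1, which promotes ribosomal RNA synthesis, rose by 1.60 (SE 0.35). Gnl3, a nucleolar GTPase read at 1132 to 1350 across the controls and 681 in both clones, dropped to 387 in A20 and fell by 1.66 (SE 0.34, adjusted p = 0.0157). Of 23 probe sets of tRNA synthetases and their scaffold 2 rose, Aimp2 by 1.49 and Rars1 by 1.34. Of 69 probe sets of mitochondrial ribosomal proteins 1 rose, Mrpl35 by 1.49, and 2 fell, Mrpl11 by 1.80 and Mrpl16 by 1.54. No call was made among poly(A)-binding proteins (closest Pabpn1 at 1.91, adjusted p = 0.0639), ribosome-associated proteins, eIF2 kinases and their phosphatase, or TOR and S6 kinases. All 10 of these calls were lost when B5 or D6 was left out and when the spread was modelled without a trend.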

How the data were processed

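The authors deposited 1 linear intensity per probe set and array. Per the deposited values, every array had been scaled to a trimmed mean (2 percent cut from each tail) of about 150. The number of arrays limits the precision. What software made the values is not given in the sources used here. Symbols came from the platform annotation, in which 10855 probe sets had 1 symbol, 396 several and 1237 none, updated through gene identifiers to RefSeq symbols. No test used the maker's 66 controls.

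The deposited scaling was kept, because these probe sets lie at the bright end, where quantile normalisation ties equal ranks and hides their spread. Values were taken to log2(intensity + 6.53), the 20th percentile of all values, a scale on which changes of dim probe sets look smaller than they are. A filter kept the 9205 with a highest value above 21.8, the 40th percentile. A linear model with 3 coefficients (both hnRNP-F clones, both AxJ controls, A20) was fitted to all 5 arrays in limma 3.58.1 (R 4.3.3), using lmFit and an eBayes step that lets the spread vary with intensity. Residual degrees of freedom were 2, and the prior added 8.72. Tests are two-sided, p-values were adjusted by Benjamini-Hochberg over the 9205 probe sets, and the threshold was 0.05. An exact test of 2 arrays against 2 cannot give a p below 1 in 3. The fit was checked on simulated data. No 2 arrays were identical.

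The members and lists were chosen with earlier results of these data known. Named were Rpl41, members past the threshold or else the 2 largest statistics of each class and comparison, the 3 highest and lowest where 1 array stood a side, the brightest 3 of a class, fixed paralog pairs, the 5 probe sets most like Rpl41, and from each list up to 3 past the threshold or else the largest statistic. Others named were chosen after their values were seen. Alternatives were pseudocounts of 1 and 32, no filter, quantile and median scaling, no intensity trend, 1 probe set per gene, each AxJ array left out, A20 left out, and A20 against all 4 AxJ arrays.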

Additional observations from a re-analysis of the deposited data

How the results depend on the processing

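No paired analysis was possible because the labels give no replicate numbers and each control is a single array. The Rpl41 call in the hnRNP-F clones became 0 without a low-value filter and 0 without a trend of spread on intensity. The 7 member calls in A20 became 1 under each of these settings, and ranged from 1 to 10 when AxJ arrays were left out in turn: 10 without hnRNP-H, and 1 without any one of the others. The 10 calls among other translation genes in A20, for which the alternatives were added after seeing the data, became 4 without the filter and 0 without the trend, and ranged from 0 to 11 with arrays left out. Without the filter more probe sets are tested, and leaving out an array leaves fewer samples. Over all probe sets the 623 A20 calls became 369 without the filter and 154 without the trend. They were fewer without B5, D6 or empty vector, but more without hnRNP-H. In the hnRNP-F comparison more than the single probe set was called without D6. The 17 members past 2-fold in hnRNP-H against empty vector became 10 with a pseudocount of 32 and 9 with 1 probe set per gene. The 6 in D6 against B5 became 2 and 2. The median difference of the ribosomal proteins kept its sign under all alternatives run, from 0.07 to 0.37 in the hnRNP-F clones and from -0.54 to -0.13 in A20. Their median log2 level had an SD of 0.39 between arrays, pooled within the AxJ groups, but this level rests on Rpl13a and Rpl37a alone. The cause of these changes was not tested otherwise. Under the alternatives no called value of a named member changed sign.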

Other observations

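The 40 probe sets listed for several genes, at least 1 of them a ribosomal protein or translation factor, belong in no class above, since none can be assigned to 1 gene. Of these, 38 were kept and 25 had a mean intensity over 1000. Their median log2 difference was 0.20 in the hnRNP-F clones, with 24 above 0 (49.8% of all probe sets were). In A20 it was -0.28, with 28 below 0 (57.4% of all). In hnRNP-H against empty vector it was -0.50, with 30 below 0 (55.4% of all). In D6 against B5 it was -0.32, with 34 below 0 (48.6% of all). Over all 563 probe sets with a mean over 1000 the medians were 0.03, -0.29, -0.11 and -0.13 in the same order. Of those 563, 54.4% were above 0 in the hnRNP-F clones and 65.9% below 0 in A20. In the hnRNP-F clones none of the 38 passed (limma adjusted p at least 0.836). Both clones lay above both controls for 11 and below both for 1, where 17.6% and 18.9% of all probe sets did. One whose list includes Rps23 read 7259 (empty vector), 3704 (hnRNP-H), 18483 (B5), 12415 (D6) and 12295 (A20), an order of arrays like that of Rpl41 at a smaller size (1.55, SE 0.42, adjusted p = 0.836). This order was not particular to it: probe sets whose lists include Rpl13, Rps2 and Rpl5 had it too, as did Eef1a1.

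In A20, 3 of the 38 fell and none rose, where 3.38% of all probe sets fell and 3.39% rose. One whose list includes Rpl12 read 192, 140, 194 and 156 in the AxJ arrays and 12.8 in A20, and fell by 3.15 (SE 0.41, limma adjusted p = 0.0011), but a second one that lists Rpl12 differed by -0.42 (adjusted p = 0.620). Another, with Rpl10 in its list, fell by 1.56 (SE 0.36, adjusted p = 0.0253), while a second one that lists Rpl10 differed by -0.96 (adjusted p = 0.270). The last, with Rpl36a and Rpl36al in its list, fell by 1.56 (SE 0.41, adjusted p = 0.0470). A20 was below all 4 AxJ arrays for 21 of the 38 and above all 4 for 1, where 33.7% and 23.5% of all probe sets were.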
